A study of Mus musculus with 24 samples.

Results

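The choroid plexus of J20 mice was compared at 5-6 months and at 3 months of age, across all genes, with 4 arrays of 4 animals at each age and 8 arrays of the 24 in the series. The arrays were taken by their titles, which write AD for the J20 genotype. Expression was measured on Illumina BeadChips, which hold a spread of beads for each probe, and 1 array was run for each animal. The rest of the series served for comparison and for the estimate of spread: J20 mice of 11-12 months (3 arrays), and wild-type (WT) mice of 5-6 months (4 arrays), of 11-12 months (6 arrays) and of 3 months (3 arrays). All groups share the tissue, and the labels name no treatment. J20 is a line that carries a human amyloid precursor protein transgene with the Swedish and Indiana mutations under the PDGF-B promoter, which is used to drive expression in neurons. The sources used here do not give sex, strain background or the time of day at dissection.

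The choroid plexus lies in the brain ventricles, where a single layer of epithelial cells around leaky capillaries makes cerebrospinal fluid and forms a barrier between blood and that fluid. Its epithelium secretes large amounts of protein, of which transthyretin (Ttr) is the best known, and proteins bound for secretion are folded in the endoplasmic reticulum (ER) by chaperones that the unfolded protein response induces. Cytosolic proteins are folded by a separate set of heat shock proteins. The tissue also holds a circadian clock, in which Clock and Arntl drive the Per and Cry repressors and output genes such as Dbp, so that levels of these genes follow the time of day. The series title names interferon responses, through which cells react to viruses and to T cells.

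Of 25697 probes, 11464 had a detection p-value under 0.01 on at least 3 of the 24 arrays and were tested, and 10825 of these carried a symbol, which gave 8232 genes. The mean intensity of an array was 621 ± 130 (SD) at 5-6 months, with a range of 458.4 to 739.4, and 676.2 ± 56.7 at 3 months, with a range of 594.8 to 721.1 (exact permutation p = 0.571, 2-sided; 0.0286 is the smallest value that 4 against 4 arrays allow). The share of probes detected was 38.28 ± 2.34 percent and 39.96 ± 1.17 percent (exact permutation p = 0.257, 2-sided). The array of 5-6-month animal 18 stood apart: its Pearson r over probes with the other 7 J20 arrays was 0.907 to 0.962, against 0.963 to 0.990 between those 7, and it had the lowest detected share of the 8, 34.97 percent. BeadChip 1 held 5-6-month animal 4 and 3-month animals 2 and 9, BeadChip 2 held 5-6-month animals 11 and 18 and 3-month animal 16, and BeadChip 3 held 5-6-month animal 25 and 3-month animal 23. Of 38 listed genes of choroid plexus epithelium, 34 had a probe and 32 passed the detection filter. Of these 32, 31 were detected on all 8 arrays, against 6327 of all 8232 tested genes. None of 14 lymphocyte markers with a probe passed the detection filter.

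No probe passed an adjusted p of 0.05 between J20 mice of 5-6 and 3 months (0 of 11464, 0 percent, limma with Benjamini-Hochberg adjustment). The smallest adjusted p in limma was 0.0949, for Prom2, whose level was 2.33-fold higher at 5-6 months, from a 3-month level near background in animal 2. At an unadjusted p under 0.05 in limma there were 364 probes (3.18 percent), 208 higher at 5-6 months (1.81 percent) and 156 lower (1.36 percent), which is a smaller share than the nominal threshold of 0.05 itself. In 229 probes (2 percent) the 4 animals of one age did not overlap the 4 of the other, 131 with higher values at 5-6 months (1.14 percent) and 98 with lower ones (0.855 percent). The median log2 difference over all tested probes was -0.0039, and 19 probes had a difference larger than 1 in size. The genes described below are therefore an ordering of measured values, and none of them is a call. A single value given for a gene is its log2 difference, 5-6 months minus 3 months, sets of 4 values are log2 intensities of the animals, and means are given with the SD of 4 animals. With the BeadChip as a fixed term in the fit 1 probe passed, of Serpina1b (log2 difference 1.03, adjusted p = 0.0173 in limma), and with the BeadChip as a random block 2 passed, of Serpina1b (1.04, adjusted p = 0.0216) and Prom2 (1.19, adjusted p = 0.0354).

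**Figure D1:**
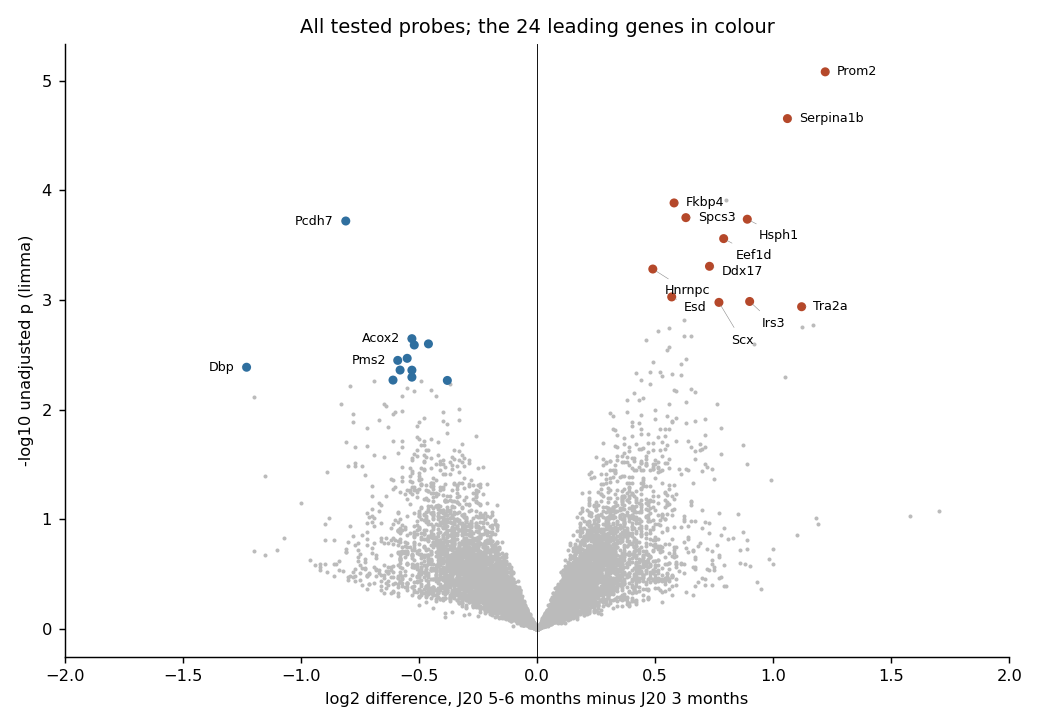
Each point is 1 of the 11464 tested probes, by its log2 difference (J20 5-6 months minus J20 3 months, horizontal) and the -log10 of limma's unadjusted p (vertical). Among probes with a symbol, the 12 genes with the smallest p and higher values are red and the 12 with lower values are blue, with the names of 16 of them. Prom2 and Serpina1b stand above the rest, and neither passed the adjusted threshold.

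Prom2 had the smallest p of the comparison. It encodes prominin-2, a membrane protein of epithelial protrusions. Its log2 intensity was 7.29, 6.92, 6.98 and 6.68 in 5-6-month animals 4, 11, 18 and 25, against 5.44, 5.68, 6.04 and 5.83 in 3-month animals 2, 9, 16 and 23 (the same animal order is used below). All 4 older animals were above all 4 younger ones, and the means were 6.97 ± 0.25 and 5.75 ± 0.25 (SD, n = 4 each). The log2 difference was 1.22 (standard error 0.209, 95% interval 0.78 to 1.65, adjusted p = 0.0949 in limma). Within BeadChips 1, 2 and 3 the difference of means was 1.73, 0.91 and 0.84. On the deposited values without background correction it was 0.47 (adjusted p = 0.73 in limma).

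Serpina1b is one of the mouse copies of alpha-1-antitrypsin, a secreted inhibitor of serine proteases, and these copies are so alike that array probes may not separate them. Its probe stood at 5.55, 5.23, 5.81 and 6.08 in the 5-6-month animals, against 4.62, 4.56, 4.50 and 4.76 in the 3-month animals. It was detected on 2 of 4 arrays at 5-6 months and on 0 of 4 at 3 months. The mean of all 4 arrays at 5-6 months, detected or not, was 1.13-fold above the lowest detected 3-month signal. This is not a strict lower bound. The fitted log2 difference was 1.06 (standard error 0.196, adjusted p = 0.126 in limma). A second Serpina1b probe and a probe of the paralog Serpina1d were not detected on any 3-month array either and had an adjusted p of 0.961 in limma.

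Fkbp4, Spcs3, Hsph1 and Eef1d had the next smallest p among genes with higher values at 5-6 months. Hsph1, which encodes an Hsp110 nucleotide exchange factor for Hsp70, had log2 intensities of 11.43, 12.16, 11.77 and 11.60 in the 5-6-month animals, against 10.71, 10.77, 10.89 and 11.00 in the 3-month animals. The groups did not overlap, and the difference was 0.89 (standard error 0.198, adjusted p = 0.311 in limma). Fkbp4, an Hsp90 cochaperone of steroid receptors, stood at 12.43, 12.76, 12.63 and 12.48 in the 5-6-month animals, against 11.88, 11.89, 12.11 and 12.09 in the 3-month animals, again without overlap (difference 0.58, standard error 0.125, adjusted p = 0.311). Spcs3, a subunit of the signal peptidase that trims proteins entering the ER, stood at 9.33, 9.35, 9.21 and 9.16 in the 5-6-month animals, against 8.66, 8.41, 8.65 and 8.80 in the 3-month animals (0.63, standard error 0.140, adjusted p = 0.311). In all 3 genes every older animal was above every younger one.

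Ddx17, Hnrnpc, Tra2a and Eef1d, which act on RNA or in translation, are described together for their roles, a grouping made after their values were seen, and Cpsf1, which also acts on mRNA, is among the lower genes. Ddx17, a DEAD-box RNA helicase, averaged 12.78 ± 0.38 at 5-6 months and 12.06 ± 0.13 at 3 months (difference 0.73, adjusted p = 0.597 in limma). Hnrnpc, which binds nascent pre-mRNA, stood at 12.82, 13.26, 13.04 and 12.88 in the 5-6-month animals, against 12.51, 12.24, 12.72 and 12.57 in the 3-month animals (0.49, adjusted p = 0.597), while its second probe stood at 0.20. In both genes the ages did not overlap. Tra2a, a splicing regulator, was at 10.76, 10.78, 9.87 and 10.24 in the 5-6-month animals, against 8.88, 8.73, 9.61 and 9.96 in the 3-month animals. Its ages overlapped, its difference was 1.12 (adjusted p = 0.938), and within BeadChips 1, 2 and 3 it was 1.95, 0.71 and 0.28. Eef1d, a subunit of translation elongation factor 1, averaged 8.84 ± 0.20 at 5-6 months and 8.06 ± 0.18 at 3 months by its leading probe (0.79, adjusted p = 0.394). A brighter Eef1d probe showed 0.073, so the 2 probes of this gene disagree.

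Esd, which encodes esterase D, had 4 tested probes that disagree. The leading one stood at 0.57 (adjusted p = 0.928 in limma) and another at -0.30, both without overlap between ages, and the remaining ones, which were not detected on all 8 J20 arrays, at 0.30 and 0.088. Irs3, an adaptor of the insulin receptor in mice, was detected on 3 of 4 arrays at 5-6 months and on 0 of 4 at 3 months. Its mean at 5-6 months was 1.27-fold above the lowest detected 3-month signal (fitted difference 0.90, adjusted p = 0.928 in limma). Scx, which encodes scleraxis, a transcription factor of tendon, averaged 8.08 ± 0.22 at 5-6 months and 7.31 ± 0.39 at 3 months (0.77, adjusted p = 0.928), with 1 younger animal, at 7.77, level with the lowest older one, at 7.76.

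**Figure D2:**
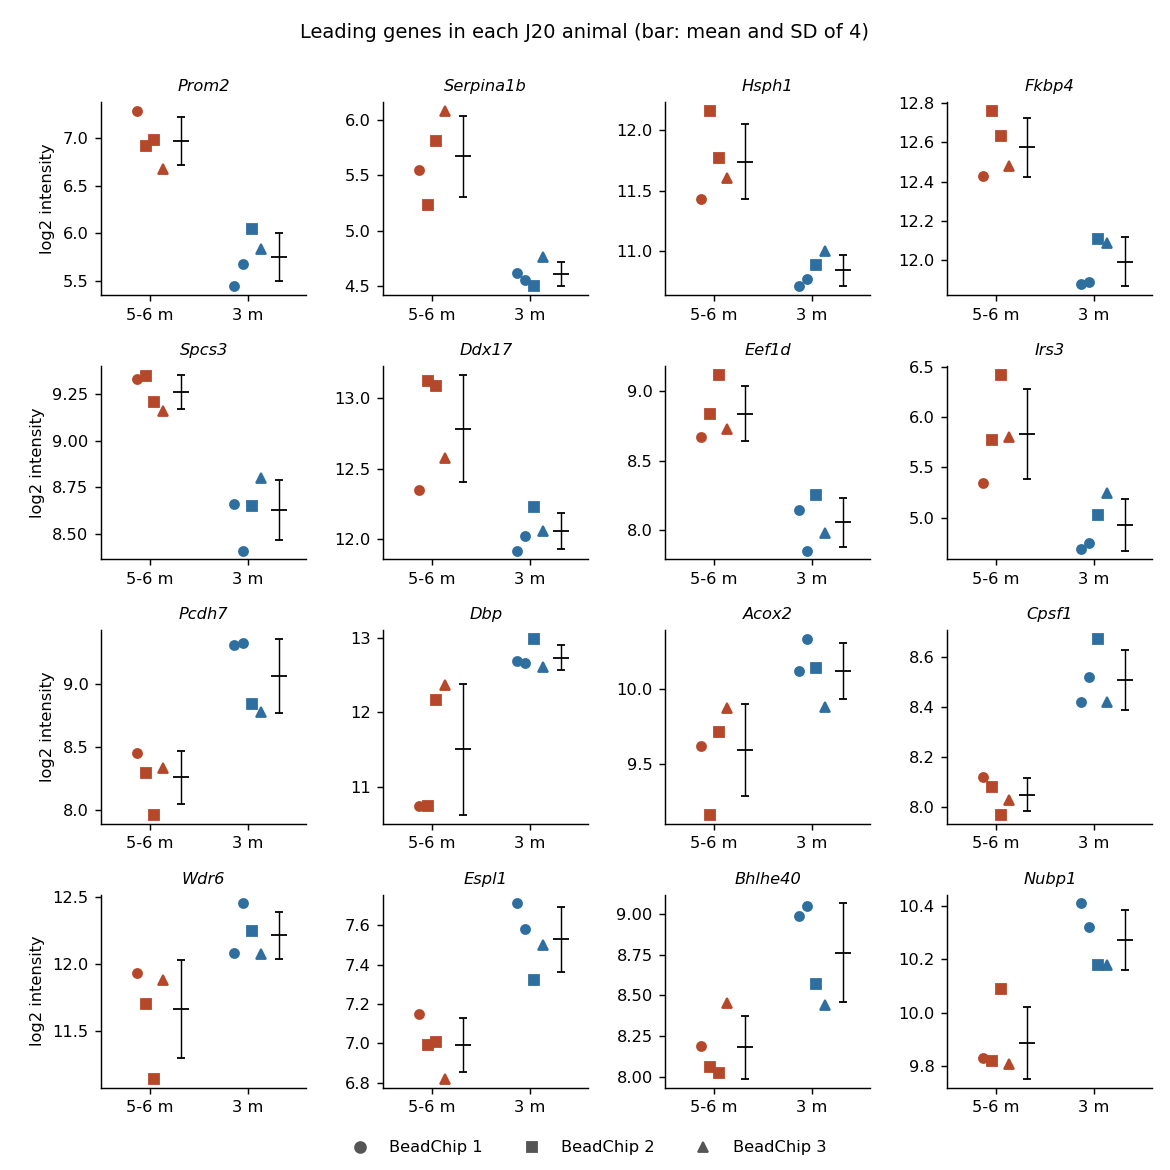
Log2 intensity of 16 of the 24 leading genes in each J20 animal, 5-6 months (red) left of 3 months (blue), with 1 panel per gene, marker shapes for the BeadChip, and bars for the mean and SD of 4 animals. The upper 8 genes have higher values at 5-6 months and the lower 8 have lower ones. The 5-6-month points of Dbp split into a pair near 10.75 and a pair above 12.

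Among genes with lower values at 5-6 months, Pcdh7 had the smallest p. It encodes a protocadherin, a cell adhesion protein, and its log2 intensity was 8.45, 8.29, 7.96 and 8.33 in the 5-6-month animals, against 9.31, 9.33, 8.84 and 8.78 in the 3-month animals. The ages did not overlap and the difference was -0.81 (standard error 0.179, adjusted p = 0.311 in limma). A second, dimmer Pcdh7 probe stood at -0.075.

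The other 11 lower genes each had an adjusted p of 0.961 in limma. Acox2, a peroxisomal oxidase of branched acyl-CoA, averaged 9.59 ± 0.31 at 5-6 months and 10.12 ± 0.19 at 3 months (difference -0.53). Cpsf1, a subunit of the factor that cleaves and polyadenylates mRNA, averaged 8.05 ± 0.068 at 5-6 months and 8.51 ± 0.12 at 3 months (-0.46), with -0.12 by a dim second probe. Espl1, which encodes separase, averaged 6.99 ± 0.14 at 5-6 months and 7.53 ± 0.16 at 3 months (-0.53). In these 3 genes the ages did not overlap. Nubp1, an assembly factor of cytosolic iron-sulfur proteins, stood at 9.83, 9.82, 10.09 and 9.81 in the 5-6-month animals, against 10.41, 10.32, 10.18 and 10.18 in the 3-month animals (-0.38). The remaining members of this group were Wdr6 at -0.55, Spata24 at -0.52, the zinc exporter Slc30a1 at -0.53, and Dbp and Bhlhe40, described with the clock genes. The mismatch repair gene Pms2 and Spryd4 were detected on none of the 4 arrays at 5-6 months, and no fold is given for them.

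Over all 24 leading genes, 19 had ages that did not overlap, 10 of the 12 higher and 9 of the 12 lower. In 23 of the 24 the difference had the same sign in all 3 BeadChips, against 18.5 percent of all tested probes. Both counts are fixed in part by the choice of genes with the smallest p and are given as a description. Without animal 18 all 24 kept their sign.

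The unfolded protein response list had mostly higher values at 5-6 months. Of 19 tested genes 15 were above 0 and 4 below, against 53.3 percent of all genes above 0, and the median difference was 0.22 against 0.018 over all genes. In 5 genes the unadjusted p was under 0.05, all higher (1.99 percent of all genes), and in 2 the ages did not overlap with higher values at 5-6 months (1.18 percent of all genes). No member passed the adjusted threshold. Without animal 18 the count above 0 was 16 and the median 0.13, and leaving out animal 2, 11 or 25 also took the median to between 0.10 and 0.13.

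The unfolded protein response is read out at promoters, many of which carry an ER stress element, a CCAAT box followed by a CCACG box. The promoters of the members are shown because Creld2 and Derl3 had the largest values of the list and Hspa5, the chaperone BiP, is the classical target. The sequences run from 250 bases before the annotated start to 50 after it, are from RefSeq (GRCm38.p6) and are written 5′ to 3′ on the gene's strand, with the element in capitals. In Creld2 and Derl3 it lies on the opposite strand, so that CGTGG comes first and ATTGG last. Creld2 lies at chr15:88819396-88819695 (+), Derl3 at chr10:75893148-75893447 (+) and Hspa5 at chr2:34771840-34772139 (+).
Creld2: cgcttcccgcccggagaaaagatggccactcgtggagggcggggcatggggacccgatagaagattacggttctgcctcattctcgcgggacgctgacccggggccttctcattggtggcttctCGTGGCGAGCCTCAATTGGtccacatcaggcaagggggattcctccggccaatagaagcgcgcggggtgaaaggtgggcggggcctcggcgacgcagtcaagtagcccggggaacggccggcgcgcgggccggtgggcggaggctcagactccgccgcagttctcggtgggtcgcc
Derl3: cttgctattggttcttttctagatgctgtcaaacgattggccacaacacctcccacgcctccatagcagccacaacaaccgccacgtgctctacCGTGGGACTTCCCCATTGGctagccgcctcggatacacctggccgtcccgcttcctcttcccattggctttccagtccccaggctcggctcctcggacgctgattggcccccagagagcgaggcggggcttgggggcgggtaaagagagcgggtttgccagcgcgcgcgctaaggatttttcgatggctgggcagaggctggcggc
Hspa5: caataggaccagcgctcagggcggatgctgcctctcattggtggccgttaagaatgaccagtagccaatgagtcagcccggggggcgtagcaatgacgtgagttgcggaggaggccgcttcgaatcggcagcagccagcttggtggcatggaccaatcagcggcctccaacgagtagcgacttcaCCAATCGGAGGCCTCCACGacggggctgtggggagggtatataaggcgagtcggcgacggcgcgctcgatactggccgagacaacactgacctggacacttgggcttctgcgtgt
The element, CCAAT and CCACG with any 9 bases between them, was searched on both strands and occurs in the promoter of 8 of the 18 list genes with a RefSeq promoter (44.4 percent), against 0.137 percent of 27025 genes. These genes are Calr, Creld2, Derl3, Dnajc3, Hsp90b1, Hspa5, Pdia6 and Syvn1. Their differences were of both signs, with 1.17 for Creld2, 0.87 for Derl3, 0.24 for Hspa5, 0.0088 for Hsp90b1 and -0.052 for Calr among them. The Xbp1 window does not hold the element, and Xbp1 stood at 0.49. The CCACG end of the element can share bases with the E-box searched below.

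Creld2, an ER protein of the unfolded protein response, was measured by 2 probes. The brighter stood at 10.70, 10.78, 9.63 and 10.41 in the 5-6-month animals, against 9.18, 9.01, 9.16 and 9.51 in the 3-month animals, without overlap, and the other at 10.31, 10.61, 9.15 and 9.93, against 8.56, 8.82, 8.87 and 9.27, with overlap only through animal 18. The differences were 1.17 (standard error 0.325) and 1.12 (standard error 0.313), both with an adjusted p of 0.961 in limma. Xbp1, the transcription factor that induces ER chaperones and the secretory apparatus, was at 12.65, 12.72, 12.34 and 12.49 in the 5-6-month animals, against 12.10, 11.72, 12.25 and 12.17 in the 3-month animals, without overlap (0.49, standard error 0.150, adjusted p = 0.961). Both genes were higher in value in all 3 BeadChips.

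Hyou1, an ER exchange factor of the Hsp110 family, stood at 0.69 and Derl2, of ER-associated degradation, at 0.47 (0.31 without 3-month animal 16). Derl3, a paralog of Derl2, stood at 0.87 but was detected on 3 of 4 arrays at 5-6 months and 1 of 4 at 3 months, and its value was 1.31 without animal 18. Genes of the ER chaperones themselves had smaller differences. Hspa5 was at 0.24 (a dim probe, detected on 3 of 4 arrays at each age), Pdia4 at 0.24, Pdia3 at 0.038, Hsp90b1 at 0.0088 and Calr at -0.052. The stress-signalling members Atf4, at -0.68, and Eif2ak3, at -0.26, had lower values, and Atf4 stood at -0.15 without animal 18. Atf4 ranged from 4.53 to 7.26 in the 5-6-month animals, with the lowest value in animal 18, against 6.51 to 7.27 in the 3-month animals.

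In the list of cytosolic heat shock genes 10 of 14 were above 0, with a median of 0.18, and 12 of 14 without animal 18. Without 5-6-month animal 4 the median was 0.071. Apart from Hsph1 the largest value was that of the small heat shock protein gene Hspb1, 9.81, 9.60, 9.20 and 9.94 in the 5-6-month animals, against 9.67, 9.44, 8.55 and 8.88 in the 3-month animals (0.50, adjusted p = 0.961 in limma). Its ages overlapped, and without 3-month animal 16 the value was 0.31. Chordc1, an Hsp90 cochaperone, and Hsp90aa1, the inducible cytosolic Hsp90, both stood at 0.39, and Hsp90aa1 at 0.21 without 5-6-month animal 11. Stip1, which links Hsp70 and Hsp90, stood at 0.23, and Hspa8, the constitutive Hsp70, at 0.22. The 4 members below 0 were the mitochondrial chaperonins Hspd1 (-0.38) and Hspe1 (-0.22), Cryab (-0.31) and Dnajb1 (-0.092), and Hspa1a, the strongly inducible Hsp70, stood at 0.063. Without animal 18 the values were 0.00043 for Hspd1, 0.015 for Hspe1 and -0.16 for Cryab.

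The Hsph1 promoter is shown because this gene led the chaperones. Its window at chr5:149636287-149636586 (-, RefSeq, GRCm38.p6) holds a heat shock element, here GAA, TTC and GAA with any 2 bases between neighbours, in capitals. It lies after the annotated start and on the opposite strand, so that the strand shown reads TTC, GAA and TTC.
Hsph1: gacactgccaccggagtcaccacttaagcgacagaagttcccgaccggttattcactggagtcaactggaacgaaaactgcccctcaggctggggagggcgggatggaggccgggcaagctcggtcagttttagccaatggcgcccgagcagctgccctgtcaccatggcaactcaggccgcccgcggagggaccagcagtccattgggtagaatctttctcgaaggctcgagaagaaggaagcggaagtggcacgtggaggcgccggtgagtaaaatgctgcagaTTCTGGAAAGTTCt
This element, a motif added after the values were seen, occurs on either strand in 4 of the 11 list genes with a promoter (36.4 percent; Chordc1, Hspd1, Hspe1 and Hsph1), against 0.662 percent of all genes. The 4 genes had differences of 0.39, -0.38, -0.22 and 0.89, of both signs.

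**Figure D3:**
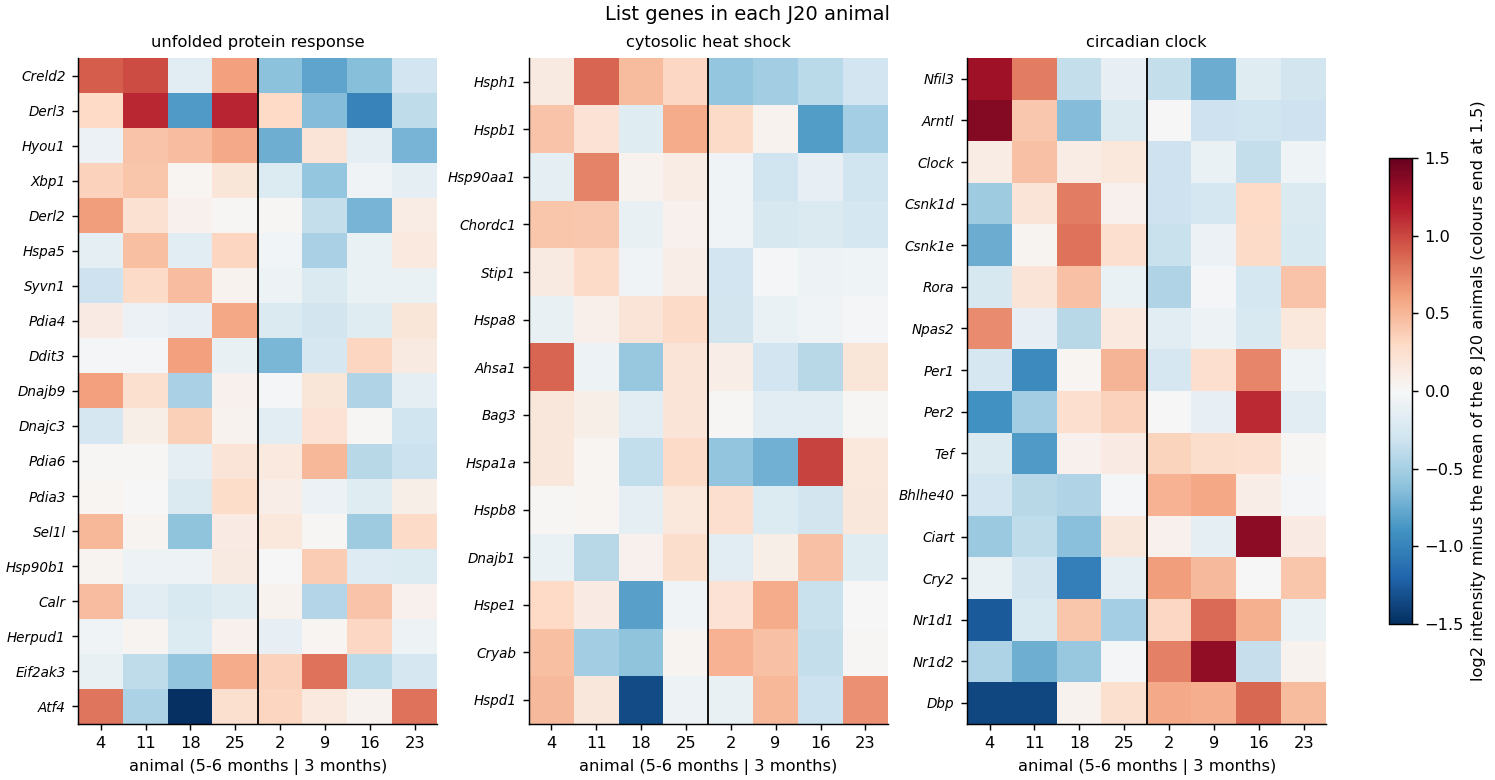
Log2 intensity of each tested member of 3 lists in each J20 animal, minus the gene's mean over the 8 animals (colour, ends at 1.5), with the 5-6-month animals left of the line and the 3-month animals right of it. Genes run from the highest to the lowest difference. Hsph1 and Clock are warm in all 4 older animals, Creld2 is pale in animal 18, and Dbp is darkest in animals 4 and 11.

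Clock genes had values of both signs. Of 16 tested, 7 were above 0 and 9 below, with a median of -0.37. At an unadjusted p under 0.05 there were 2 higher and 6 lower (1.99 and 1.46 percent of all genes), in 1 gene the ages did not overlap with higher values at 5-6 months and in 2 with lower ones (1.18 and 0.911 percent of all genes), and none passed the adjusted threshold. The list median was -0.24 without animal 4, -0.15 without animal 11 and -0.13 without animal 16.

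Dbp, a clock-driven transcription factor of the PAR bZIP family, was at 10.75, 10.75, 12.17 and 12.36 in the 5-6-month animals, against 12.69, 12.66, 12.98 and 12.60 in the 3-month animals. All older animals were below all younger ones, but they split into a low pair (animals 4 and 11) and a pair close to the younger animals (18 and 25). The difference was -1.23 (standard error 0.381, adjusted p = 0.961 in limma), and within BeadChips 1, 2 and 3 it was -1.92, -1.53 and -0.24. Ciart, a clock-controlled repressor, stood at -1.20 and -0.70 by 2 probes, and at -0.75 and -0.37 without 3-month animal 16, which had the highest Ciart value of the 8 animals by both probes. These probes were detected on 1 and 2 of 4 arrays at 5-6 months and on 4 of 4 at 3 months.

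The nuclear receptor genes Nr1d1 and Nr1d2 stood at -0.80 (-0.51 without animal 4) and -0.89 (-0.59 without animal 9). The repressor gene Cry2, detected on 3 of 4 arrays at 5-6 months, stood at -0.77 without overlap. Bhlhe40, a repressor of Clock and Arntl, stood at -0.58. On the other side were Nfil3, a repressor that opposes Dbp (0.78, and 0.48 without animal 4), and Clock itself (0.41), whose ages did not overlap: 10.48, 10.80, 10.48 and 10.53 in the 5-6-month animals, against 10.06, 10.27, 10.01 and 10.30 in the 3-month animals. Nfil3 was at 9.85 and 9.35 in animals 4 and 11 and at 8.22 and 8.45 in animals 18 and 25, so that the animals with low Dbp were those with high Nfil3. Arntl followed the same split, at 6.54 and 5.57 in animals 4 and 11 and 4.51 and 4.94 in animals 18 and 25, against 4.85 to 5.16 in the 3-month animals, where it was not detected. The time of day at dissection is not given, and its part in these values was not tested. The E-box CACGTG, a palindrome, occurs in the promoters of 3 of 13 clock genes (Ciart, Per1 and Tef; 23.1 percent) against 8.09 percent of all genes, and the D-box TTANGTAA in 0 of 13 against 2.72 percent.

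Of 23 tested genes of the type I interferon response, 18 had lower values at 5-6 months and 5 higher, with a median of -0.16, and none passed the adjusted threshold. Without animal 18 the count above 0 was 4. Irf9, the DNA-binding subunit of the factor that type I interferon activates, was at 8.07, 7.47, 7.46 and 7.53 in the 5-6-month animals, against 8.28, 8.44, 7.97 and 8.41 in the 3-month animals, with an overlap through animal 4 and animal 16 (difference -0.64, standard error 0.224, adjusted p = 0.961 in limma). The interferon-induced genes Usp18, Isg15 and Oasl2 stood at -0.79, -0.47 and -0.46. Much of this rested on 3-month animal 23: it had the highest Usp18 (9.01) and Isg15 (7.26) of the 8 animals, and without it the values were -0.44 and -0.17 and the list median -0.075. Usp18 also stood at -0.51 without 5-6-month animal 4, and Oasl2 at -0.27 without 3-month animal 16. An interferon element, GAAA and GAAA with any 2 bases between them on either strand, occurs in the promoters of 8 of 19 list genes (42.1 percent) against 3.99 percent of all genes, Isg15 among them and Irf9 not.

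Genes of the type II interferon response and MHC class II had 12 of 17 members above 0 and a median of 0.049, with 8 above 0 without animal 18 and 6 with the BeadChip in the fit. That median ranged from -0.11 without 3-month animal 2 to 0.30 without 3-month animal 16, so its direction turned. The list of MHC class I presentation had 3 of 9 above 0 (median -0.083) and that of interferon receptors and JAK-STAT 8 of 11 (median 0.069), which was 4 of 11 without animal 18. The class I median was 0.024 without animal 16, and that of the receptors -0.023 without animal 18, both with the opposite sign. No member of the 3 lists had an unadjusted p under 0.05.

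Epithelial genes of the choroid plexus differed little between the ages. The list of 32 had 8 above 0 and 24 below and a median of -0.10 (-0.053 without 5-6-month animal 11), and its summed intensity ran from 318975 to 348404 at 5-6 months and from 335514 to 351456 at 3 months. Transthyretin, the main secreted protein, averaged 15.01 ± 0.053 at 5-6 months and 14.97 ± 0.091 at 3 months (0.035, 95% interval -0.17 to 0.24, adjusted p = 0.971 in limma), a probe near the top of the scale, where intensities compress. The keratin gene Krt8 (-0.36) and Steap1 (-0.34) were the only members with an unadjusted p under 0.05, and without animal 18 Steap1 stood at -0.20. In bulk tissue fewer cells of a type and less RNA per cell cannot be told apart. Of 14 genes of epithelial junctions 7 were above 0 and 7 below. The claudin gene Cldn6 stood at 0.67 (0.33 without animal 18), with its highest value, 7.42, in animal 18 and the other older animals at 5.92 to 6.14, against 5.47 to 5.95 in the 3-month animals.

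Genes of respiratory complexes II to V were below 0 in 29 of 35, with a median of -0.076 (-0.12 without animal 4 and -0.026 without animal 18). The count above 0 was 6, against 12 without animal 18 and 13 with the BeadChip in the fit. Sdhd, a membrane anchor of complex II, stood at -0.81 (-0.53 without animal 18) and was the only member with an unadjusted p under 0.05. Cholesterol synthesis genes had 7 above 0 and 10 below, none with an unadjusted p under 0.05. Glucocorticoid-responsive genes had 10 of 12 above 0, led by the cell cycle inhibitor gene Cdkn1a (0.56). Their median was 0.18, but within BeadChips 1, 2 and 3 it was 0.043, -0.017 and 0.086. Their summed intensity ran from 31063 to 35877 at 5-6 months and from 35240 to 37115 at 3 months. Of 11 immediate early genes 4 were above 0, led by Jun, at 6.16, 6.60, 6.66 and 6.47 in the 5-6-month animals, against 5.85, 5.43, 6.27 and 5.89 in the 3-month animals (0.61, adjusted p = 0.961 in limma).

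Markers of brain cells had wide and overlapping ranges at both ages. All 13 tested neuron markers were above 0, with a median of 0.50, but none had an unadjusted p under 0.05. Their summed intensity was 2290 to 7483 at 5-6 months and 2050 to 5094 at 3 months, and the highest values were in animals 11 and 18 at 5-6 months and animal 16 at 3 months, all on BeadChip 2. Thy1, for example, was at 6.45, 9.47, 8.14 and 6.10 in the 5-6-month animals, against 5.64, 6.31, 8.71 and 6.43 in the 3-month animals. The list median was 0.0048 without animal 11 and 0.94 without animal 16. Oligodendrocyte markers (8 of 8 above 0, sums of 3196 to 7191 at 5-6 months and 3680 to 6478 at 3 months) were highest in the same 3 animals. Astrocyte markers (6 of 7 above 0, sums of 1872 to 3433 at 5-6 months and 1636 to 2963 at 3 months) were highest in animals 11 and 16. Their part in the other values was not tested.

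Genes of the blood vessels and of neighbouring tissue depended on single animals. Endothelium markers had 5 of 14 above 0 (2 without animal 18, 1 with the BeadChip in the fit) and pericyte markers 8 of 12 (2 without animal 18). Fibroblast markers had 9 of 13 and macrophage markers 10 of 14 above 0, and none of these 4 lists had a member with an unadjusted p under 0.05. Growth hormone (Gh) stood at 4.79, 7.78, 10.54 and 4.54 in the 5-6-month animals, against 9.33, 6.97, 7.64 and 5.28 in the 3-month animals, and prolactin (Prl) at 4.79, 6.57, 8.52 and 4.45, against 7.86, 5.20, 6.78 and 4.89. Both hormones are made in the pituitary, and they were highest in animals 18 and 2. Erythroid genes had 2 of 5 above 0, with sums of 687 to 16286 at 5-6 months and 1204 to 9340 at 3 months. Of the remaining lists, acute phase genes had 4 of 12 above 0, cytokine and chemokine genes 7 of 13, cilium markers 6 of 13, cell cycle genes 5 of 10, senescence genes 5 of 9 and sex-linked genes 2 of 3.

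The mouse App gene, whose human counterpart is the transgene, stood at 12.56, 11.92, 11.56 and 12.71 in the 5-6-month animals, against 12.48, 12.44, 12.42 and 12.83 in the 3-month animals (difference -0.36, standard error 0.288, adjusted p = 0.961 in limma). The ages overlapped, and the value was -0.15 without animal 18 and -0.54 without 5-6-month animal 25. Whether this probe also reads the human transgene is not known here. Of 18 genes of amyloid precursor processing and clearance, 8 were above 0, and Ncstn, which encodes the gamma-secretase subunit nicastrin, was the only one with an unadjusted p under 0.05 (0.29).

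The same 2 ages were compared in WT mice on other arrays, which share the BeadChips and the estimate of spread with the J20 arrays but no animal. In WT mice too no probe passed (0 percent), and 295 had an unadjusted p under 0.05 (2.57 percent). Of the 24 leading J20 genes 23 had the same sign in WT mice (95.8 percent), against 47.3 percent of all probes, and the exception was Spryd4, which was not detected on any J20 array of 5-6 months. The count was also 23 without animal 18. In 8 of the 24 the WT difference had an unadjusted p under 0.05 as well. Of the 364 J20 probes 272 had the same sign in WT mice (74.7 percent), and 64 had it with an unadjusted p under 0.05 in WT mice, 17.6 percent of the J20 probes and 21.7 percent of the 295, against 1.91 percent of all probes. Both p-values of a probe use the same estimate of spread, so a small estimate favours a small p in both. The part of this shared estimate in the count of 64 was not tested. Over all tested probes the J20 and WT differences had a Pearson r of -0.0661, so the likeness was seen among the leading genes and not across the array.

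Prom2 stood at 1.22 in J20 and 0.98 in WT mice, Creld2 at 1.17 and 0.99, Xbp1 at 0.49 and 0.56, and Hsph1 at 0.89 and 0.63. Pcdh7 stood at -0.81 in J20 and -0.78 in WT mice, Clock at 0.41 and 0.47, Nfil3 at 0.78 and 0.84, and Dbp at -1.23 and -1.80. The neuron marker list went the other way, with a median of 0.50 in J20 and -0.46 in WT mice. Among the interferon genes Irf9 stood at -0.64 in J20 and 0.13 in WT mice.

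The test of whether the age difference itself differed between J20 and WT mice gave 0 calls (0 percent, smallest adjusted p 0.998 in limma), with 160 probes at an unadjusted p under 0.05 (1.4 percent). Of the 24 leading genes 3 were among those: Eef1d, with 0.79 in J20 and 0.17 in WT mice (difference of differences 0.61, standard error 0.266), Esd, with 0.57 and 0.11 (0.46, standard error 0.219), and Spryd4. The 24 were chosen by their J20 difference, which is a part of this contrast, so the choice favours small p-values here. The probes of Eef1d and those of Esd disagreed, as described above. Npr3, the clearance receptor of natriuretic peptides, had the smallest p of the interaction among genes with a lower J20 value, with -0.29 in J20 and 0.37 in WT mice (-0.66, standard error 0.181, adjusted p = 0.998). Milr1 had the smallest among genes with a higher J20 value, with an adjusted p of 0.998. In J20 mice it was detected on 2 of 4 arrays at 5-6 months and 0 of 4 at 3 months. Its J20 mean at 5-6 months was 1.06-fold above the lowest detected 3-month signal. In WT mice of 5-6 months it was detected on 0 of 4 arrays, so no exact difference is given.

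**Figure D4:**
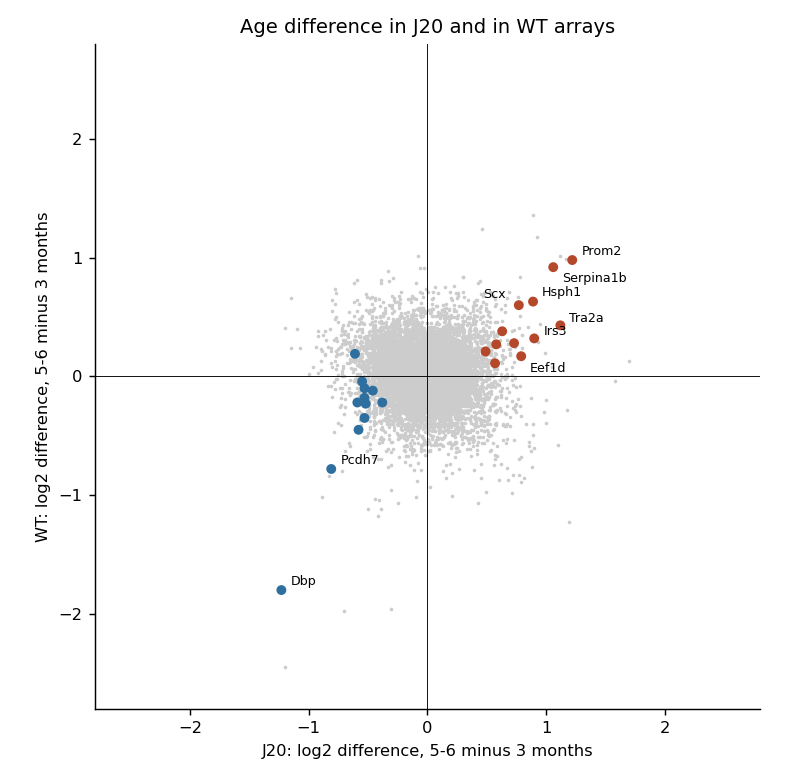
Log2 difference between 5-6 and 3 months of each tested probe in J20 mice (horizontal) and in WT mice (vertical), with the 24 leading J20 genes in colour (12 higher in red, 12 lower in blue). The red points lie in the upper right and the blue ones, apart from Spryd4, in the lower left, while the grey cloud of all probes has no slope.

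Genes that differ with age in WT mice were then read in J20 mice. In WT mice 12 probes of 9 genes passed between 11-12 and 3 months (0.105 percent of 11464), a comparison of WT arrays, although J20 arrays entered the detection filter and the estimate of spread, and 1 of the 12 probes has no symbol. Prom2 and Serpina1b are among them. Tlx2, which encodes a homeobox transcription factor, was at 5.88, 5.26, 6.02 and 5.88 in 5-6-month J20 animals, against 4.60, 4.70, 5.00 and 5.03 in 3-month ones, without overlap. It was detected on 3 of 4 arrays at 5-6 months and on 0 of 4 at 3 months. Its mean at 5-6 months was 1.21-fold above the lowest detected 3-month signal (fitted difference 0.92, adjusted p = 0.961 in limma). Chrna4, a subunit of the nicotinic acetylcholine receptor, stood at 0.54 and 0.69 by 2 probes, both without overlap. Only the first of these probes was among the 12.

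The genes that were lower in old WT mice had J20 values below 0, with more overlap, and that of C1qtnf1 was close to 0. Ciart, among them, is described with the clock genes. Arhgap24, a GTPase-activating protein, ranged from 6.40 to 7.19 in the 5-6-month animals, against 7.19 to 7.61 in the 3-month animals (-0.41, adjusted p = 0.961 in limma), and at -0.24 without animal 4. Ndn, which encodes the growth suppressor necdin, stood at -0.31, and C1qtnf1, a secreted C1q and TNF related protein, at -0.052 (0.023 without animal 11). Between 5-6 and 3 months in WT mice Arhgap24 stood at -1.04, C1qtnf1 at -0.60 and the Ciart probes at -2.45 and -1.98. Each of these was farther from 0 than in J20 mice. The 3-month WT arrays of this comparison also entered the choice of these genes. That choice favours a large WT difference, so the contrast with J20 mice is given as a description only.

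Over the 3 ages of J20 mice, Prom2 averaged 5.75 ± 0.25 at 3 months (n = 4), 6.97 ± 0.25 at 5-6 months (n = 4) and 8.16 ± 0.43 at 11-12 months (n = 3). Serpina1b averaged 4.61 ± 0.11, 5.67 ± 0.36 and 7.77 ± 0.16, and Tlx2 4.84 ± 0.21, 5.76 ± 0.34 and 7.17 ± 0.48 at the same ages. For these 3 genes the animals of 5-6 months lay between those of the other ages without overlap. Dbp averaged 12.73 ± 0.17, 11.51 ± 0.88 and 10.88 ± 0.37, and there 2 of the 4 animals of 5-6 months lay within the range of 11-12 months. Creld2 averaged 9.21 ± 0.21, 10.38 ± 0.53 and 9.77 ± 0.85, and Hsph1 10.84 ± 0.13, 11.74 ± 0.31 and 11.54 ± 0.16, so that both means were lower at 11-12 than at 5-6 months. The Creld2 values at 11-12 months, 8.95, 9.73 and 10.64, overlapped those at 5-6 months. Creld2 and Hsph1 were picked for high values at 5-6 months, which favours a lower mean in another group. The averages of all these genes share the 3-month animals.

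**Figure D5:**
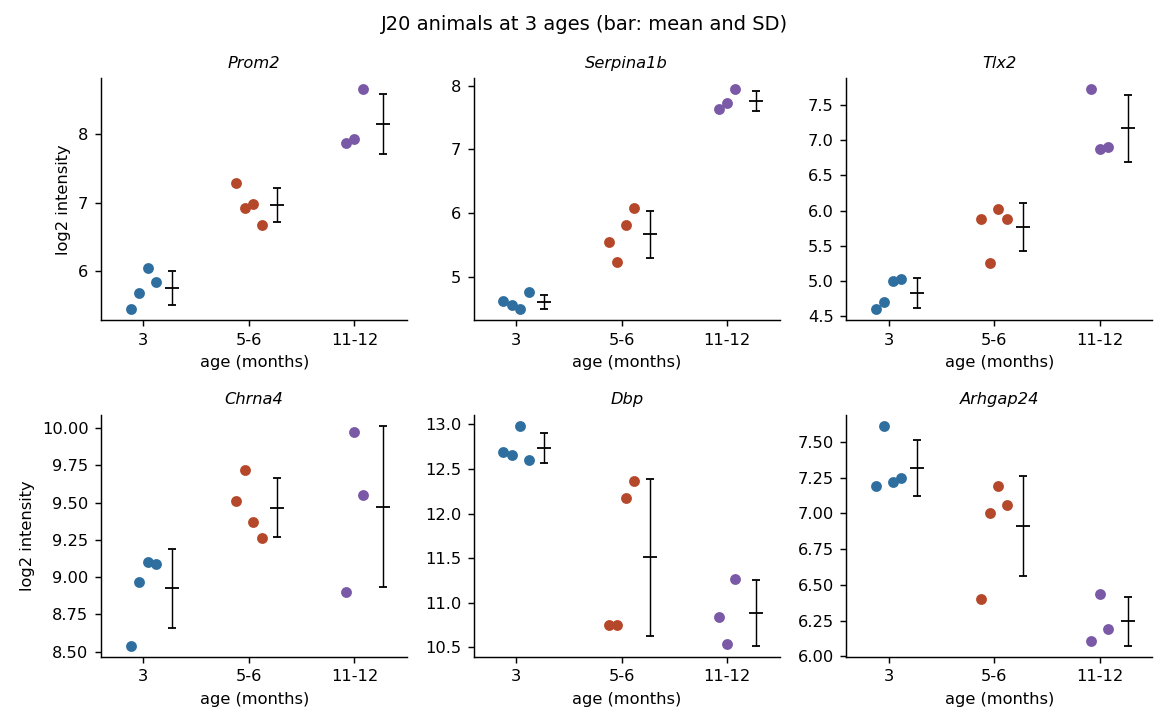
Log2 intensity of 6 genes in J20 mice of 3 months (blue, 4 animals), 5-6 months (red, 4 animals) and 11-12 months (purple, 3 animals), with bars for the mean and SD. Prom2, Serpina1b and Tlx2 lie higher at each later age without overlap. The 3 old animals of Chrna4 spread from 8.90 to 9.97.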

How the data were processed

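RNA of choroid plexus tissue was extracted with the RNeasy Plus Micro kit and labelled as biotin-cRNA with an Ambion MessageAmp kit, per the labels' protocols. Per the file headers, the non-normalized table that was deposited gives 1 linear intensity for each probe and array. It also holds a detection p-value that the authors deposited beside each intensity. The deposited series matrix holds log2 values, which equal the quantile-normalized log2 of those intensities to within 5e-09; the sources used here do not give the scanner or the summary software. All 24 columns were used (0 left out), and 0 pairs of arrays were identical. Labels do not say whether animals shared a litter or a day.

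The neqc function of limma (version 3.58.1, R version 4.3.3) was run on these intensities, with its normexp background taken from the detection values, then quantile normalization, with 16 added before log2 was taken. A probe was kept where its detection p was below 0.01 on 3 or more arrays. The kept probes went into 1 fit of all 24 arrays with a mean for each group, adjusted by Benjamini-Hochberg over all probes. Of 25697 probes 23978 had 1 symbol, 0 had several and 1719 had none, and 23962 symbols were updated by gene ID. Differences are 5-6 minus 3 months, SDs are over animals, and the number of arrays limits the precision. Where no array of an age detected a probe, a fold was taken over the lowest detected signal of any probe on those arrays. The probe's own signal replaced that signal where it was higher. The other side was the mean of all 4 arrays, detected or not, so the fold is not a strict bound. Values within a BeadChip have no test.

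Named genes were drawn from the probes called in the main or the BeadChip fit and the 12 with the smallest p in each direction. The 5 largest without overlap in each direction, up to 4 per list by p and 5 per direction of the interaction were added. Genes called in old WT mice and App, Ttr, Serpina1b, Prom2, Tlx2, Dbp, Ciart, Creld2 and Xbp1 completed them. Not every gene that these rules pick is named in the text. Other list members and the hormone genes are named as examples chosen after their values were seen. The 30 lists have 1 probe per gene, the brightest, and carry no test. The comparison, members and lists were chosen with earlier results of these data known. The fit was tested on simulated data. RefSeq promoters (GRCm38.p6) matched 18 of 19 unfolded protein response genes, 11 of 14 heat shock, 13 of 16 clock and 19 of 23 type I interferon genes. Differences of further list members and second probes were recomputed under the alternatives after the data were seen. Alternatives were the BeadChip as a fixed or random block, the deposited log2 values, median scaling, an offset of 50, other detection filters, fewer arrays, array weights, a trended robust variance and leaving out each array.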

Additional observations from a re-analysis of the deposited data

Results flagged for a closer look

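In groups of 4 animals, 12 of 206 combinations of a probe or array measure and an age had 1 animal far from the other 3 by Dixon's test, and chance gives about 1 in 20. Slc30a1 was at 6.50 in 3-month animal 16, against 6.90 to 6.94 in the other 3. App was at 12.83 in 3-month animal 23, with the others at 12.42 to 12.48. Nubp1 was at 10.09 in 5-6-month animal 18, with the others at 9.81 to 9.83. Arhgap24 was at 7.61 in 3-month animal 9, with the others at 7.19 to 7.25. Clock was at 10.80 in 5-6-month animal 11, with the others at 10.48 to 10.53, and the ages stayed apart. Irf9 was at 8.07 in 5-6-month animal 4, inside the 3-month range, with the others at 7.46 to 7.53. Slc17a7, a vesicular glutamate transporter of neurons, was at 6.87 in 3-month animal 16, with the others at 5.01 to 5.04. Arntl was at 5.16 in 3-month animal 2, with the others at 4.85 to 4.86, none of them detected. Calr was at 10.44 in 5-6-month animal 4, with the others at 9.75 to 9.82. Cldn6 was at 7.42 in 5-6-month animal 18, with the others at 5.92 to 6.14, and Ddit3, a transcription factor of ER stress, was at 6.15 in the same animal, with the others at 5.42 to 5.51. Milr1 was at 5.24 in 5-6-month animal 4, with the others at 5.66 to 5.69.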

How the results depend on the processing

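The count of 0 calls (364 probes at an unadjusted p under 0.05) became 1 with the BeadChip as a fixed block (Serpina1b) and 2 with it as a random block (Serpina1b and Prom2), and stayed 0 under the other planned settings that left out no single array. The fit of 15 arrays was run for the interaction and for the count at an unadjusted p, not for this count. Leaving out each of the 24 arrays in turn gave 0 to 1 calls: 1 without WT 5-6-month animal 24 (Serpina1b, log2 difference 1.05, adjusted p = 0.0217 in limma) and 1 without J20 11-12-month animal 35 (Prom2, 1.22, adjusted p = 0.0358). The 364 probes at an unadjusted p became 186 with median scaling, 897 with no filter on dim probes, 623 with array weights, 826 without animal 4 and 231 without animal 18, and the cause was not tested. The interaction gave 0 calls under all settings run. Of the gene differences recomputed under each setting, 18 probes changed sign under at least 1. When 1 array was left out, Ttr ranged from -0.0038 to 0.058, C1qtnf1 from -0.13 to 0.023, Slc17a7 from -0.21 to 0.95, Hspd1 from -0.61 to 0.00043 and Hspe1 from -0.36 to 0.015. Near 0 in all arrays, Calr ranged from -0.21 to 0.083, Dnajb1 from -0.20 to 0.041, Hsp90b1 from -0.056 to 0.14, Pdia3 from -0.048 to 0.12 and Hspa1a from -0.17 to 0.41. The hormone genes ranged from -1.61 to 0.40 (Gh) and -0.92 to 0.46 (Prl). Second probes ranged from -0.26 to 0.15 (Cpsf1), -0.0061 to 0.17 (Eef1d), -0.094 to 0.29 (Esd), -0.22 to 0.089 (Pcdh7) and -0.093 to 0.11 (Spryd4). Array weights gave 0.037 for Dnajb1, 0.0057 for Eif2ak3, and 0.056 and 0.053 for the second probes of Pcdh7 and Spryd4. The leading probes of Pcdh7 and Spryd4 kept their sign under every setting. The deposited values gave 0.05 for Gh, 0.017 for Prl and -0.0082 for Hspa1a, an offset of 50 gave 0.01 for Prl, and median scaling gave -0.034 for Hspa1a. With the BeadChip as a fixed block Hspa1a stood at -0.004 and the second Spryd4 probe at 0.013, and as a random block this Spryd4 probe stood at 0.0059. In 3376 other combinations of probe and setting the direction and the side of the threshold were kept, and in 5 Prom2 or Serpina1b passed. On the deposited values without background correction Prom2 stood at 0.47, Serpina1b at 0.30 and Tlx2 at 0.25. No paired analysis was possible because the groups compared share no animal numbers. Depth here is signal over background. Probes near background (Serpina1b, Tlx2, Irs3, Spryd4, Pms2) give a fold over the lowest detected signal or no fold. Prom2 was near background in 3-month animal 2.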
